A study of Mus musculus with 2 samples.

Results

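The 10 transcription factor genes considered here belong to the programme of cartilage hypertrophy and bone formation. They were examined for DNA regions that gave less MBD2-captured signal in Uhrf1 conditional knockout (cKO) mouse chondrocytes than in Control chondrocytes. The genes were Runx1, Runx2, Runx3, Sp7, Dlx5, Dlx6, Mef2c, Msx2, Foxa2 and Foxa3. A region belonged to a gene when it overlapped the RefSeq span of the gene widened by 20 kb on each side. This took 34 of the 35861 regions in the deposited list, and 4 of the 34 were shared by the neighbours Dlx5 and Dlx6. The cKO group was primary knee cartilage chondrocytes of Uhrf1 cKO mice, and the Control group was the same cell type from mice labelled Control. Both came from mice of C57BL/6 background at postnatal day 3, and both cultures had 100 ng/ml of recombinant human BMP-2 for 24 hours. The driver of the conditional deletion, the alleles the Control mice carried and the number of mice per culture are not stated in the labels used here. There was 1 library per group, of 15039206 kept tags for cKO and 9782276 for Control. No difference has a replicate check, so no p-value was computed, and genotype and library cannot be told apart. The assay reads DNA, so neither the identity of the cells nor the loss of Uhrf1 RNA could be checked against expression.

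Chondrocytes of the growth plate enlarge and mineralise their matrix before bone replaces it, and a small set of transcription factors drives both this hypertrophy and the osteoblasts that follow. Runx2 is the central one: Mef2c and the BMP-responsive homeobox factors act upstream of it or beside it, and Sp7 acts downstream of it. DNA methylation at CpG sites is copied to the new strand at each cell division with the help of Uhrf1, and the MBD2 protein captures fragments with methylated CpG. Each region in the list carries the authors' fold, which runs Control over the local cKO background. A larger fold therefore means a lower cKO signal relative to Control, not a lower cKO level as such. It also carries the whole number of Control tags and the authors' FDR, a percent made by swapping the libraries and limited to 100%. The list holds regions in which Control exceeded cKO, and the opposite direction was not analysed here.

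The Runx3 promoter sequences are shown first because the upstream one lay wholly within a region. Runx genes are known to be transcribed from an upstream promoter and a downstream, CpG-rich one. The sequences run from 250 bases before a listed start to 50 after it, are from RefSeq (GRCm38.p6, the assembly that mm10 names) and are written 5′ to 3′, with each CpG in capitals. The Runx1 and Runx2 windows are shown for comparison within the family, and no region overlapped them.
Runx3 upstream start, plus strand, chr4:135120395-135120694: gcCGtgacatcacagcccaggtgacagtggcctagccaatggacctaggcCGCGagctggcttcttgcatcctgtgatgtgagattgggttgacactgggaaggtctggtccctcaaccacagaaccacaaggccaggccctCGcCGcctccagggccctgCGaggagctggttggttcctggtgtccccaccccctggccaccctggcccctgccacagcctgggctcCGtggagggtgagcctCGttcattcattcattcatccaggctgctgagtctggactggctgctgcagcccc
Runx3 downstream start, plus strand, chr4:135152295-135152594: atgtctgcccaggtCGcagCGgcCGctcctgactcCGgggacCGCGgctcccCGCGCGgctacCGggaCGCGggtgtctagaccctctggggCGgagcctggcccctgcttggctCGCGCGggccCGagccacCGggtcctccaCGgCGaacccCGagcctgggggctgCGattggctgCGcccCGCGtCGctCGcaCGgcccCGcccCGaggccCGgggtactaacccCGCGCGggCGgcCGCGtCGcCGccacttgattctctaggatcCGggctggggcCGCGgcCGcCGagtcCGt
Runx1 upstream start, minus strand, chr16:92826025-92826324: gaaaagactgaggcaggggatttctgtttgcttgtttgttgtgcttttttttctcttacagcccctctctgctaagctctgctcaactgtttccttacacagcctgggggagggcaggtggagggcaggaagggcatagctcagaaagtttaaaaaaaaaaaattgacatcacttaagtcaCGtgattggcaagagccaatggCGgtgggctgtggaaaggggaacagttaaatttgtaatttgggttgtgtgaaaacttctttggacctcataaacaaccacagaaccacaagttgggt
Runx1 downstream start, minus strand, chr16:92697280-92697579: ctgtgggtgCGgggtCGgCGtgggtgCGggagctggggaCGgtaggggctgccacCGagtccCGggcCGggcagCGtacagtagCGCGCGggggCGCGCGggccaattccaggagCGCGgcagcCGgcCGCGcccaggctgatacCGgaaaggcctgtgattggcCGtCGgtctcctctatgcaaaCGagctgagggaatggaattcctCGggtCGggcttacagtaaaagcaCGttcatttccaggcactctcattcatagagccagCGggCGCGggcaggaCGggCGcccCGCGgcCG
Runx2, minus strand, chr17:44814578-44814877: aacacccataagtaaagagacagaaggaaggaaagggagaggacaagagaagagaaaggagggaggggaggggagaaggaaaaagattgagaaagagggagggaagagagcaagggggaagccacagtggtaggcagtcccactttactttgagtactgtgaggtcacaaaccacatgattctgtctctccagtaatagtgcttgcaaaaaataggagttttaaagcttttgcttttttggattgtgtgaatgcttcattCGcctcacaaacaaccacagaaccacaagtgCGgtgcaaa

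The upstream Runx3 window held 8 CpG and was covered from end to end by the region at chr4:135120380-135120965, with 179 Control tags, a fold of 8.12 and an FDR of 0.02%. The summit of this region lay 189 bp inside the gene. The downstream Runx3 window held 45 CpG, and its start was 7.55 kb from the nearest region. Runx1 showed the same contrast in CpG, with 2 in the upstream window and 35 in the downstream window, but neither overlapped a region, at 3.70 kb and 2.85 kb from the start to the nearest one. Only an upstream start was listed for Runx2, so its downstream promoter could not be compared. The Runx2 window held 2 CpG, and the nearest region was 89.7 kb away, deep in the gene. Over all 21262 promoter windows of protein-coding genes in the table, 175 overlapped a region (0.823%), and 58 lay wholly inside one (0.273%). The upstream Runx3 window was therefore among few promoters in the list.

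The promoter table matched 7 of the 10 genes with 13 windows, and Sp7, Dlx5 and Dlx6 were not matched. The 12 windows other than the upstream Runx3 one did not overlap a region. They held from 1 CpG (Mef2c) to 45 (Runx3), against a median of 13 over all windows and 9 over the 175 windows with a region. Windows with 5 to 9 CpG overlapped a region in 2.12% of cases (95% Wilson interval 1.67 to 2.68), and those with 0 to 4 CpG in 0.464% (0.321 to 0.670). None of the 1940 windows with 35 or more CpG overlapped one, and the downstream Runx1 and Runx3 windows were of this class. MBD2 captures little from sequence with few methylated CpG, so the absence of a region says nothing of methylation in a CpG-poor window. In a CpG-rich window it does not give the methylation level either, because the list holds only regions in which Control exceeded cKO.

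**Figure D1:**
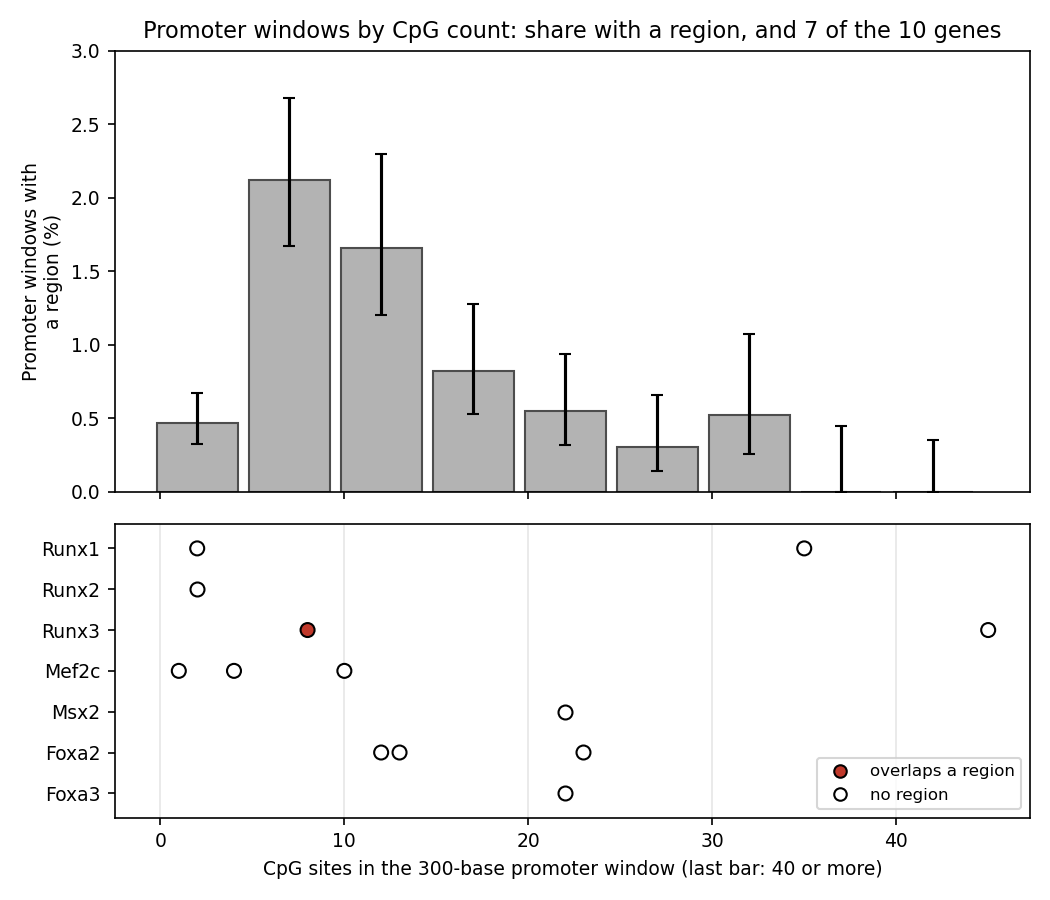
Upper panel: share of protein-coding promoter windows (300 bases) that overlap a region, in percent, by the number of CpG in the window, with 95% Wilson intervals for counting error. Lower panel: CpG count of each window of 7 of the 10 genes, filled where it overlaps a region; the filled point is the upstream Runx3 window with 8 CpG, in the class of 5 to 9 CpG with the highest share, 2.12%.

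The most upstream windows of the Runx genes also shared a stretch of 18 bases, the longest run common to all 3. It holds the core sequence that Runx proteins bind, ACCACA, at 2 places and no CpG.
Shared run: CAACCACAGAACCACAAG
In Runx1 it began 26 bases after the listed start (chr16:92826031-92826048, minus strand), and in Runx2 21 bases after it (chr17:44814589-44814606, minus strand). In Runx3 it began 136 bases before the start (chr4:135120509-135120526, plus strand), inside the region with lower cKO signal. No other gene had this run in any of the 21262 windows, on either strand. ACCACA or its complement TGTGGT, searched on both strands, occurred 2 times in the upstream Runx1 window, 3 times in the Runx2 window and 2 times in the upstream Runx3 window, and was in 15% of all windows. It was not found in the other 10 windows of the factors. GGGCGG or CCGCCC, the core bound by Sp factors, was in 7 of the 13 windows, those of Foxa2, Foxa3, Msx2, the second Mef2c start and the downstream Runx3 start, against 46.2% of all windows. TAATTA, a homeodomain core, was in the Msx2 and second Mef2c windows (4.53% of all), and CACGTG in the upstream Runx1 window (7.84% of all). A match of letters is no evidence of binding.

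Across the 10 genes, 9 had a region in the widened span, where 65.4% of 21883 protein-coding genes had one. Foxa2 was the exception. A region overlapped the span itself of 7 genes, Runx1, Runx2, Runx3, Sp7, Dlx5, Mef2c and Foxa3, against 38.2% of all protein-coding genes. A summit, the position of highest signal in a region, lay within 1 kb of either gene end for 3 genes, Runx3, Sp7 and Dlx5, against 7.84%. At least 1 region of 10-fold or more was found for 8 genes, against 54.2%. Gene length differed widely. Runx1, Runx2 and Mef2c span 225, 319 and 163 kb, and their windows held 21 of the 34 regions. The median span of the 10 genes was 10.3 kb, against 17.2 kb over all protein-coding genes. With 10 genes, 2 of which share their regions, these counts are a description and carry no test.

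Region density ranged from 0.00 to 90.4 per Mb among the genes, on few regions each and with wide intervals. Together the windows held 29 regions per Mb (95% exact Poisson interval 20.1 to 40.5). This compares with 18.5 per Mb over the joined windows of all protein-coding genes and 13.3 per Mb over the whole list. The windows of 16 paralogs of the factors, described below, held 28.6 per Mb, which is inside the interval of the 10 genes. A density particular to these 10 genes was therefore not shown. Dlx5 was densest, at 90.4 per Mb from 4 regions (24.6 to 231), a density reached by 2.82% of protein-coding windows (a count of 4 or more by 16.9%), and Dlx6 had 89.6 from the same 4. Sp7 followed at 59.5 (12.3 to 174), Runx3 at 41.1 (11.2 to 105) and Runx1 at 37.8 (18.1 to 69.5). Runx2 had 22.3 (9.63 to 43.9), Msx2 21.8, Foxa3 19.9 and Mef2c 14.8 (3.05 to 43.2). The intervals of all 10 genes overlapped one another, so no gene differed from another beyond counting error. The intervals of Runx1, Dlx5 and Dlx6 excluded the density of the whole list, and those of Dlx5 and Dlx6 also that of all gene windows. Intervals cover counting error only, and regions cluster along the genome, so they are too narrow. These comparisons are therefore no test, and those of Dlx5 and Dlx6 rest on the same 4 regions.

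**Figure D2:**
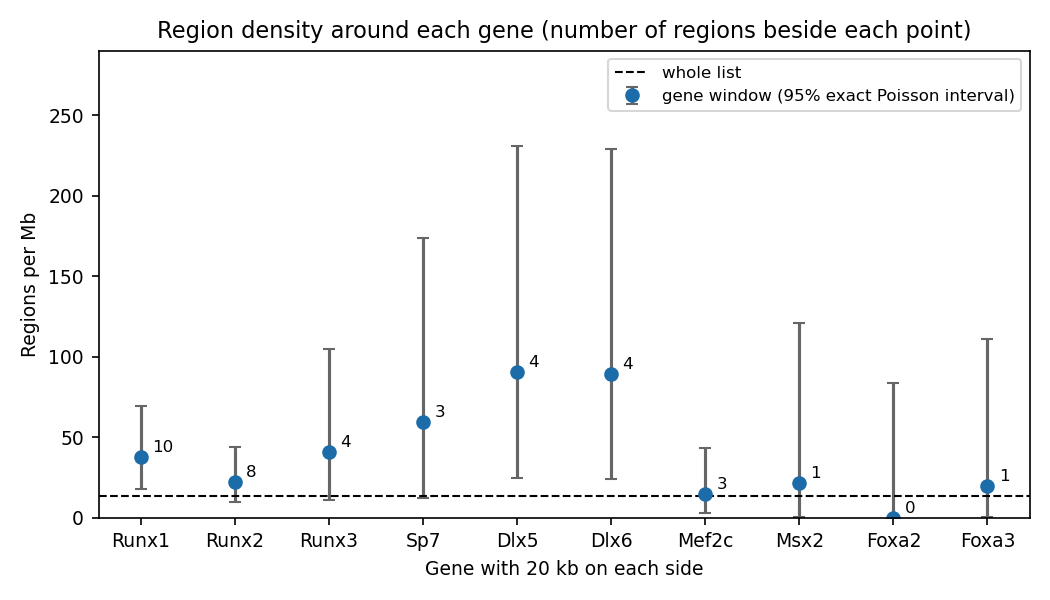
Regions per Mb in the window of each gene (span plus 20 kb on each side), with 95% exact Poisson intervals and the number of regions beside each point; the dashed line is the whole list at 13.3 per Mb. Dlx5 and Dlx6 stand highest at about the same density because they share 4 regions, and Foxa2 is at 0.00.

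The folds of the 34 regions were like those of the list. They ran from 4.13 to 56.03 with a median of 10.9, against a median of 12.2 over all regions. A fold of 10 or more belonged to 22 of the 34 (64.7%, 95% Wilson interval 47.9 to 78.5), against 64.6% of the list. The count was again 22 (64.7%) for an FDR of at most 5%, against 56.9% of the list. An FDR of 100% belonged to 4 regions (11.8%), against 16.2% of the list. The Control tags ran from 24 to 374 with a median of 138, against 103 over the list. High folds came mostly with few tags: of the 6 regions at 20-fold or more, 4 had under 50 tags, and in the whole list this held for 53.6% of such regions. Of the 9 regions under 50 tags, 2 had an FDR of at most 5%, and in the whole list 11.5% of such regions did. Of the 23 regions with at least 100 tags, 20 had an FDR of at most 5%, and the list share was not counted for these. A low FDR also went with more tags in the whole list. The median there was 161 tags at an FDR of at most 5% and 59.0 above it, against 164 and 40.5 for the 34 regions. The count of 20 is therefore not read as a trait of these genes.

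**Figure D3:**
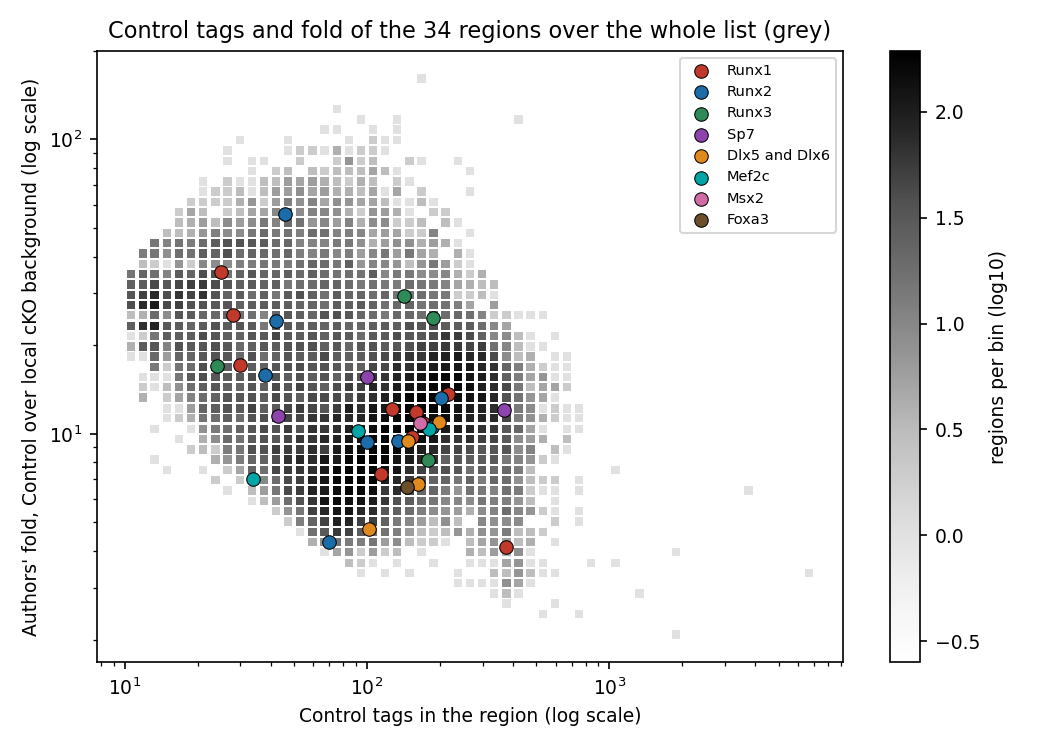
Authors' fold (Control over local cKO background, log scale) against Control tags (log scale) for the 34 regions, coloured by gene, over the density of all 35861 regions in grey. The Runx2 region of 56.03-fold has 46 tags, whereas 2 Runx3 regions, at 29.49-fold and 24.71-fold, have 142 and 187 tags.

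Runx2, the master regulator of osteoblasts that also drives chondrocyte hypertrophy (chr17:44495987-44814797), held 8 regions, all inside the gene. Their Control tags ran from 38 to 202 and their folds from 4.29 to 56.03, and 5 had an FDR of at most 5%. The largest fold, 56.03, came from 46 tags at chr17:44639766-44640158 (FDR 0.07%), and only 1.06% of the list had such a fold or more. The next folds were 24.1 at chr17:44608436-44608741, from 42 tags (FDR 3.77%), and 15.87 at chr17:44552097-44552413, from 38 tags (FDR 42.81%). The regions richest in tags had moderate folds. At chr17:44724215-44724920 there were 202 tags at 13.27-fold, at chr17:44545215-44545741 186 tags at 10.53-fold, and at chr17:44591798-44592278 134 tags at 9.43-fold, each with an FDR of at most 0.28%. The other 2 regions had 70 and 100 tags, and the first of these, at 4.29-fold, had an FDR of 100%. All 8 summits lay between 49390 and 228528 bp from the lower-coordinate end, which is the far end for this minus-strand gene, and none lay in the 89.7 kb beside the listed start.

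Runx1, required for the first blood stem cells and active in early cartilage (chr16:92601466-92826074), held the most regions, 9 in the gene and 1 beyond its start, and 1.35% of protein-coding windows held 10 or more. Its span of 225 kb is long against the median of 17.2 kb, and its density was reached by 24.8% of protein-coding windows. Its folds ran from 4.13 to 35.34, and 6 regions had an FDR of at most 5%. The 3 largest folds were thinly supported: 35.34 from 25 tags at chr16:92684452-92684731 (FDR 24.16%), 25.33 from 28 tags at chr16:92822078-92822371 (FDR 34.88%) and 17.18 from 30 tags at chr16:92620189-92620512 (FDR 62.01%). The largest tag count among all 34 regions, 374, was at chr16:92614921-92615511 with the lowest of their folds, 4.13, and an FDR of 0.02%. The next tag counts were in the regions at chr16:92677457-92678037, with 215 tags at 13.69-fold, and chr16:92684900-92685435, with 170 tags at 10.86-fold, both at an FDR of 0.00%. The 170-tag region lay 168 bp from the 35.34-fold one. By position, 5 regions lay between the downstream start and the far end (95.9 kb), 4 between the 2 starts (129 kb) and 1 upstream of the first start, at chr16:92833775-92834335 with 160 tags, 11.9-fold and an FDR of 0.02%. Chosen after their values were seen, the regions nearest to the CpG-rich downstream start were those at chr16:92700181-92700597 (114 tags, 7.3-fold, FDR 8.56%) and chr16:92701536-92702012 (127 tags, 12.13-fold, FDR 0.75%), with summits 3.08 kb and 4.39 kb upstream of it.

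Runx3, which acts with Runx2 in chondrocyte maturation (chr4:135120645-135177990), held 3 regions in its span and 1 beyond its far end. Beside the promoter region described above, 142 Control tags at 29.49-fold lay at chr4:135129694-135130305, and 187 tags at 24.71-fold at chr4:135144482-135144999, both with an FDR of 0.00%. These were the only regions of the 34 that combined a fold over 20 with more than 100 tags. The summits of all 3 lay in the 31.9 kb from the upstream to the downstream start, and none in the 25.4 kb from there to the far end. The outer region, at chr4:135192206-135192451, was 14.3 kb beyond the gene with 24 tags, 16.95-fold and an FDR of 100%.

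Sp7, also known as osterix, acts below Runx2 and is required for osteoblasts (chr15:102356603-102367035). It had 3 regions. The one in the gene, at chr15:102356623-102357023, had 43 Control tags, 11.51-fold and an FDR of 49.04%, with its summit 300 bp from the lower-coordinate end. The 2 better supported ones lay beyond the higher-coordinate end. At chr15:102369488-102369910, 2.62 kb away, there were 100 tags at 15.6-fold (FDR 0.06%). At chr15:102381843-102382469, 15.2 kb away and in no annotated gene, there were 368 tags at 12.05-fold (FDR 0.00%), a tag count reached by 2.10% of the list.

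Dlx5 and Dlx6 are neighbouring homeobox genes that respond to BMP, promote hypertrophy and bone formation and are known to be transcribed towards each other. Dlx5 (chr6:6877801-6882068) had a region in the gene at chr6:6877930-6878556 with 199 Control tags, 10.93-fold and an FDR of 0.00%, whose summit was 0.440 kb from its lower-coordinate end, on the side of Dlx6. A second region in Dlx5, at chr6:6880276-6880765, had 102 tags at 4.76-fold and an FDR of 100%. Between the genes lay the region at chr6:6875624-6876269 with 147 tags, 9.48-fold and an FDR of 0.15%. No region overlapped Dlx6 (chr6:6863334-6867970). The nearest one, 3.45 kb outside it at chr6:6859348-6859888, had 163 tags, 6.77-fold and an FDR of 3.92%, and lay in Dlx6os1, a long noncoding RNA gene whose span contains Dlx6. Both the largest and the smallest fold of the 4 were thus found within Dlx5.

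**Figure D4:**
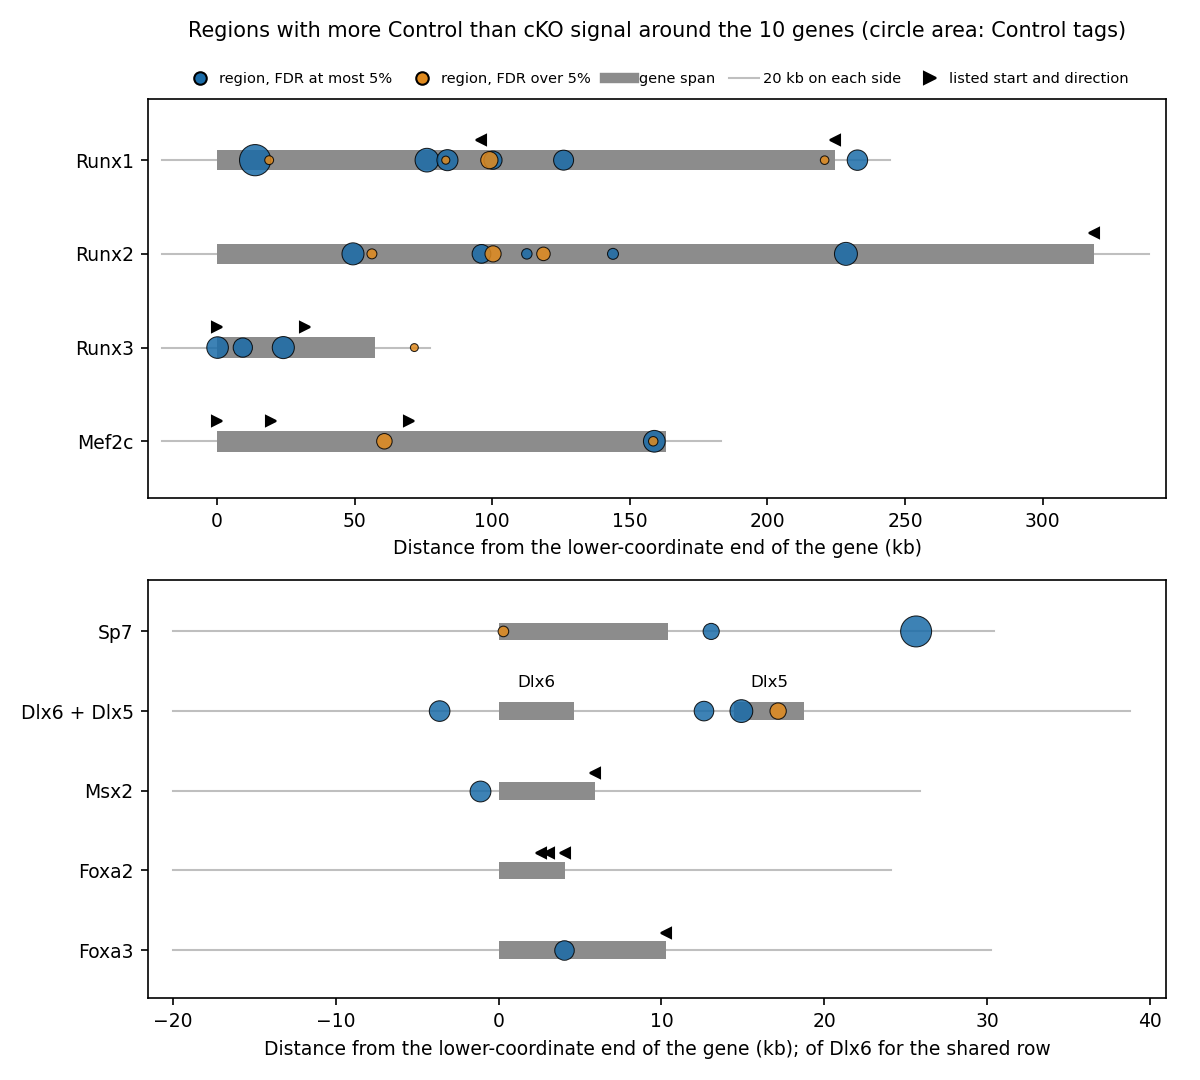
Regions (circles at their summits, area by Control tags, blue at an FDR of at most 5% and orange above it) along each gene, in kb from the lower-coordinate end of the gene (of Dlx6 in the shared row), with the gene span as a bar, the 20 kb on each side as a line and listed starts as arrowheads. None of the 8 Runx2 regions lies in the 89.7 kb beside its only listed start. The first 3 Runx3 regions run from its upstream start towards the downstream one, and Foxa2 has no region.

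Mef2c, a MADS-box factor that switches on hypertrophy and is held back by Hdac4 (chr13:83504017-83667079), had 3 regions, all inside the gene. At chr13:83662706-83663198 there were 181 Control tags at 10.36-fold (FDR 0.00%), and 120 bp before it, at chr13:83662307-83662585, 34 tags at 7.03-fold (FDR 100%). This adjoining pair lay 4.17 kb and 4.57 kb from the far end of the gene, and the thinner region also touched a noncoding gene model. The third region, at chr13:83564666-83565220, had 92 tags at 10.22-fold (FDR 7.46%) and its summit was 8.79 kb from the nearest of 3 listed starts. Only 1 of the 3 thus passed an FDR of 5%.

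Msx2, a BMP-induced homeobox gene of skull and limb bone (chr13:53466881-53472780), had 1 region, outside the gene. At chr13:53465418-53465995 it had 166 Control tags, 10.9-fold and an FDR of 0.00%. Its edge was 0.886 kb and its summit 1.15 kb beyond the far end of the gene, so it was not counted at an end, and it lay in a noncoding gene model that spans Msx2. The listed start, whose promoter window held 22 CpG, was 6.79 kb from this region.

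Foxa2 and Foxa3 encode forkhead factors known from liver and gut that also act in hypertrophic chondrocytes. Foxa3 (chr7:19013283-19023539) had 1 region, inside the gene at chr7:19016945-19017457, with 146 Control tags at 6.6-fold and an FDR of 1.63%, and a summit 6.23 kb from the listed start. Foxa2 (chr2:148042877-148046969) had none, and the nearest lay 161 kb away, a distance met or exceeded by 5.50% of protein-coding genes, whose median was 6.70 kb. At the density of the whole list, 0.585 regions would fall in the Foxa2 window of 44.1 kb. This figure does not cover the longer stretch out to the nearest region, and the absence was not tested.

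Genes upstream of the 10 factors and their targets were counted by the same rules. Of 23 regulators and partners, 19 had a region in the widened span, 14 in the gene and 2 at an end (82.6% against 65.4% of all protein-coding genes, 60.9% against 38.2% and 8.70% against 7.84%). These genes are longer, with a median span of 46.2 kb against 17.2 kb, and the counts carry no test. Those at an end were Hdac4, a repressor of Mef2c and Runx2 (9.87-fold, 64 tags, FDR 86.23%) and Nfatc1 (6.92-fold, 67 tags, FDR 100%), so neither was at an FDR of at most 5%. Inside the genes folds were larger, at 27.39 from 201 tags in Hdac4 (FDR 0.00%) and 29.66 from 12 tags in Nfatc1 (FDR 100%). The largest folds in a gene without a region at an end were 19.88 in Zfp521 from 26 tags (FDR 42.33%), 12.12 in Smad1 from 28 tags (FDR 100%) and 12.05 in Wwtr1 from 234 tags (FDR 0.00%). Cbfb, the common partner of the Runx proteins, had 1 region in the gene, of 176 tags at 7.22-fold and an FDR of 0.1%, and was named after its values were seen.

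Of 18 targets in hypertrophic cartilage and bone, 8 had a region in the widened span, 3 in the gene and 1 at an end. These counts lay below the shares of all protein-coding genes (44.4% against 65.4%, 16.7% against 38.2% and 5.56% against 7.84%). They rest on 18 genes and carry no test. The targets are also shorter, with a median span of 12.7 kb against 17.2 kb over all protein-coding genes. Their windows held 12.3 regions per Mb (exact Poisson interval 6.87 to 20.2). The interval included both the 18.5 per Mb of all protein-coding windows and the 13.3 of the whole list. A lower density than these was therefore not shown. The gene with a region at an end was Pth1r, the receptor through which PTHrP delays hypertrophy (7.92-fold, 130 tags, FDR 0.78%). The others with a region in the gene were Alpl, the alkaline phosphatase of mineralising cells, at 57.12-fold from 59 tags (FDR 0.02%), and Spp1, osteopontin, at 37.42-fold from 19 tags (FDR 50.6%). Of 16 paralogs in the Dlx, Msx, Mef2, Foxa and Sp families, 11 had a region in the widened span, 4 in the gene and 2 at an end. The share was 68.8% in the widened span, against 65.4% of all protein-coding genes, and 12.5% at an end, against 7.84%. The share in the gene lay below the 38.2% of all protein-coding genes. The paralogs are shorter, with a median span of 6.08 kb, and the counts carry no test. Those at an end were Mef2a (11.89-fold, 58 tags, FDR 12.72%) and Mef2d (7.99-fold, 45 tags, FDR 100%). The other paralogs with a region in the gene were Sp3 at 12.4-fold and Msx1 at 7.0-fold. None of the 20 promoter windows of the regulators, 21 of the targets or 16 of the paralogs overlapped a region. The share over all windows was 0.823%, so these lists are too small to be compared with the 1 of 13 windows of the factors.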

How the data were processed

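Methylated DNA of primary chondrocytes was sheared to about 300 bp, captured with MBD2 and sequenced, per the labels' protocols. The authors called regions with MACS 1.4.2 on mm10, per the submitters' processing notes and the file headers, with Control as the enriched library, cKO in place of the background, a p limit of 1e-10 and at most 1 tag per position. After duplicate removal 76.1% of cKO and 44.8% of Control tags were kept. The modelled shift d of 58 bp was close to the tag size of 55 bp. The aligner is not given in the sources used here.

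The deposited tag count is unscaled Control tags. The authors' fold is a ratio of Control to the local cKO background, the deposited score is minus 10 times log10 of the caller's p, and the deposited FDR is a percent value. All describe or filter regions within the list. Tag numbers of cKO within regions were not used.

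Gene spans came from RefSeq GRCm38.p6 (21883 protein-coding genes), without exons, so exon, intron and UTR classes were not analysed. All 65 listed symbols matched, and 1 planned gene is not reported here. Overlap by 1 base counted, and coordinates are 1-based. The members and lists were chosen with earlier results of these data known, and the shared Runx run was sought after the sequences were seen. Named were every factor, every region of a factor with at most 5, otherwise its 3 largest folds and tag counts and any at an end. Of other genes, those with a summit within 1 kb of an end were named, or else the 3 largest folds. Planned protein comparisons were not made. The overlap rules were tested on simulated data. The alternatives were limits on p and FDR, other windows, overlaps and folds, and joined regions. The tools were pandas 2.3.3, NumPy 2.4.6, SciPy 1.17.1 and Matplotlib 3.10.9 under Python 3.11.15.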

Additional observations from a re-analysis of the deposited data

How the results depend on the processing

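Of 42 values under alternatives, 40 stayed within 1.5 times the reported count, or within the 95% interval of the median fold (9.48 to 13.7, from ranks). The limit of 1.5 times is loose. Counts of 7, 8 or 9 of the 10 genes cannot rise past it, and a fall from 3 genes at an end to 2 stayed within it. The 51 regions found with 50 kb on each side, in place of 34, lay exactly at it. With an FDR of at most 5% the regions near the 10 genes numbered 22 in place of 34, through fewer regions. With a fold of at least 20 in place of 10, 3 genes had such a region in place of 8, the 3 Runx genes. This fold was reached by 21.5% of the list, and the share of all protein-coding genes was not counted. Runx1 and Runx2 are also the longest of the 10 genes and hold the most regions. The Runx1 regions of at least 20-fold had only 25 and 28 tags, at FDRs of 24.16% and 34.88%. The count of genes with a region was 9 under each window, overlap, p and FDR limit tried. Under an FDR of at most 5%, Sp7 had no region in its span or at its end, and the genes with a region at an end were Runx3 and Dlx5. A wider limit of 2 kb around ends gave 4 genes. No paired analysis was possible because there is 1 library per group and no test. Region values of few tags are limited by depth.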

Other observations

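Widening the windows to 50 kb on each side brought more regions to some of the genes than to others. Runx3 then had 9 regions in place of 4, and Sp7 had 10 in place of 3. Runx1 had 11 in place of 10, and Msx2 and Foxa3 each had 3 in place of 1. Runx2 stayed at 8, Mef2c at 3, and Dlx5 and Dlx6 at 4. Foxa2 still had none. The gain over all protein-coding genes at this width was not counted, and no difference between genes was tested.

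Over all protein-coding promoter windows, the share with a region was highest at intermediate CpG counts. It was 1.66% for 10 to 14 CpG (95% Wilson interval 1.20 to 2.30), 0.820% for 15 to 19 (0.526 to 1.28) and 0.303% for 25 to 29 (0.139 to 0.660). Windows of the same gene and of neighbouring genes can share a region, so these intervals, which cover counting error only, are too narrow.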
